A study of Homo sapiens with 14 samples.

Results

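The mRNAs examined here encode collagen chains, the subunits of the most abundant structural proteins of the extracellular matrix. Of 44 collagen chain symbols among the 58434 gene symbols counted, 19 had at least 50 reads in 2 or more of the 4 total mRNA libraries, and these 19 are described. Of the others, 21 chains had at least 1 read in some library and 4 had none. The cells were MDA-MB-231, an established human breast cancer line, carrying a doxycycline-inducible shRNA from a lentiviral vector with a red fluorescent reporter. The shRNA was either a non-silencing one (shNSi, 2 cultures) or one against DAP5 (shDAP5, 2 cultures), a relative of the scaffold eIF4G that lacks the site binding the cap protein eIF4E, and both lines received doxycycline at 1 µg/ml for 6 days. RNA was sequenced from total mRNA and from light and heavy polysomes of sucrose gradients, which hold mRNAs with few and with many ribosomes, and from a moderate pool of the shNSi cultures alone, giving 14 libraries. The shDAP5 total libraries are titled total polysome and the shNSi ones total, while the column names of all 4 carry the same code. They were taken as total mRNA, and if the RNA differed, the ratios to total below would not measure the same quantity in both lines. The study asked which mRNAs depend on DAP5 for their translation, and examined both light and heavy polysomes. Each line carried a single shRNA sequence and was sorted by its reporter, so effects of the DAP5 shRNA beyond DAP5 cannot be told apart from those of DAP5 loss.

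Collagen chains are made on ribosomes bound to the endoplasmic reticulum, where 3 chains wind into a triple helix. The helix requires glycine at regular steps along the chain, so the coding sequence is a long run of codons beginning GG followed by a pair of other codons, often for proline. Type IV collagen forms the network of basement membranes, type VI forms beaded filaments around cells, and types I and V form striated fibrils. Breast cancer cells lay down several of these matrices themselves. To show the shared coding pattern, the first 10 glycine-led triplets of the longest uninterrupted block are printed for 4 members that the results turn on, with the codon that leads each triplet in capitals, from GENCODE v29 transcripts on GRCh38.
COL4A1: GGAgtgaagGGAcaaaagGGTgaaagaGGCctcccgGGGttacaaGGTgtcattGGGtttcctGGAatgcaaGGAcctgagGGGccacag
COL4A2: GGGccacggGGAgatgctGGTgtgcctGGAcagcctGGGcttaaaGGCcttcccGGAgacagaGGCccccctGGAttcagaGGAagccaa
COL8A1: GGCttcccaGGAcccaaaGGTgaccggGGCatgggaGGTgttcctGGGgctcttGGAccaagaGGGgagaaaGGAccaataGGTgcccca
COL9A2: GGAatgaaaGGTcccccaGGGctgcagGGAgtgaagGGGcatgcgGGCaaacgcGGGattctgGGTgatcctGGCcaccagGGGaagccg

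The COL4A1 stretch spans exons 2 and 3 on chromosome 13 between 110213944 and 110242692 (minus strand) and covers codons 43 to 72. The COL4A2 stretch spans exons 29 and 30 on the plus strand of the same chromosome between 110473069 and 110478010. The COL8A1 stretch lies within exon 5, chr3:99794961-99795050 (plus strand), and the COL9A2 stretch in exons 11 and 12 on chromosome 1 between 40311093 and 40311265 (minus strand). A block of at least 10 such triplets was found in 93 of 19513 annotated coding sequences (0.477%) and in all 19 members. The share of codons inside blocks of at least 4 triplets ran from 8.1% in COL12A1 to 84.9% in COL9A2. The letters are a description of the members, and no test was made of them.

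The cells were checked against markers of the line and of fibroblasts, the other common source of collagen mRNA. VIM, CD44, CAV1 and AXL, which mark this mesenchymal line, were present in every library at 105 CPM or more (CPM, counts scaled to a common library size by TMM over all 14 libraries). The hormone receptor gene PGR was at 0 and ESR1 and CDH1 were below 1 CPM, while EPCAM lay between 2.91 and 6.11 and ERBB2 between 36.9 and 102 CPM. Of 8 fibroblast markers THY1 was at 0, PDGFRA, DCN, POSTN and FAP stayed below 1 CPM, LUM and PDGFRB reached at most 1.18 and 1.75, and FBLN1 lay between 34.0 and 68.9 CPM. The summed fibroblast list ranged from 35.3 to 73.2 CPM over the 14 libraries, with 60.4 and 73.2 CPM in the shNSi heavy libraries, 62.9 CPM in the moderate library of shNSi culture 2 and 48.6 and 51.3 CPM in the shDAP5 heavy libraries. The line markers VIM, CD44, CAV1 and AXL together had 15900 and 18100 CPM in shNSi and 5890 and 6660 CPM in shDAP5 heavy polysomes, and 7050 and 7220 against 5060 and 5610 CPM in total mRNA. Most of this was VIM, and the sum was lower in shDAP5 cells, as most collagen chains were. CAV1 went the other way in heavy polysomes, with 483 and 298 CPM in shNSi and 485 and 580 CPM in shDAP5 libraries. The part of these differences in the collagen results was not tested. EIF4G2, the gene of DAP5, had 1392 and 1359 CPM in the shNSi and 526 and 730.3 CPM in the shDAP5 total libraries, a log2 change of −1.11 (SE 0.18, adjusted p = 0.0172 by edgeR's quasi-likelihood test). The adjusted p was 0.0501 without TMM, 0.143 with limma, 0.443 in 1 fit of all 14 libraries and 0.68 without shDAP5 culture 1, with changes from −0.90 to −1.13. In heavy and light polysome mRNA EIF4G2 had −0.86 (adjusted p = 0.0691) and −1.33 (adjusted p = 0.43), which did not pass.

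Each library held between 25899838 and 30795910 counts. Collagen chains were a small part of them, between 0.0328% and 0.315%. The scaling factors of the heavy libraries differed between the lines, with 0.763 and 0.703 for shNSi and 1.04 and 0.932 for shDAP5. In shNSi culture 2 the collagens held 0.315% of counts in heavy polysomes against 0.102% in culture 1. Of 19 chains, 13 were higher in the total mRNA of culture 2 than of culture 1. The share over all genes was not counted. Within groups, log2 CPM of the 2 cultures correlated across 16235 genes with r between 0.97 and 0.993.

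Levels in shNSi total mRNA were compared between chains per kilobase of transcript. COL13A1, a transmembrane collagen, was highest with 47.5 ± 20.2 CPM per kb (SD, n = 2), followed by COL6A1 with 44.5 ± 32.3, COL6A2 with 36.9 ± 25.6 and COL4A2 with 28.0 ± 7.45. Neighbours in this upper part of the order did not differ beyond their spread. COL4A1, the partner of COL4A2, had 9.80 ± 0.0334 CPM per kb. COL1A1, the chain of type I collagen, had 3.86 ± 1.33 CPM per kb. At the lower end COL16A1 had 0.45 ± 0.268, COL15A1 0.407 ± 0.166 and COL5A2 0.318 ± 0.00155 CPM per kb. COL1A2, the partner chain of COL1A1 in type I collagen, did not meet the count rule, with 13 and 3 reads in the shNSi and 23 and 22 reads in the shDAP5 total libraries. The members nearest the threshold from inside were COL5A2 with 46 to 68 reads and COL16A1 with 42 to 103 reads over the total libraries, and those nearest from outside were COL4A4 with 7 to 38 and COL8A2 with 11 to 31 reads.

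Most collagen mRNAs were more abundant in the heavy polysomes of shNSi cells than in their total mRNA. The log2 heavy to total ratio (heavy polysome CPM over total CPM) was above 0 in both shNSi cultures for 15 of 19 chains, where 45.5% of 16235 genes were, and that of heavy polysome to the moderate pool for 17, against 36.5% of genes. The exceptions in the latter were COL15A1 and COL9A2, whose mean heavy to total ratios were −0.12 and −0.10. Loading on light polysomes relative to total mRNA was below 0 in all 4 cultures for 16 chains and 29.5% of genes. In shDAP5 cells the heavy to total ratio was below 0 in both cultures for 12 chains and 25.7% of genes.

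The change in this ratio is called heavy translation efficiency here and was tested as the interaction of fraction and shRNA across 8 libraries with a term for each culture. It was lower in shDAP5 cells for 11 of 19 collagen chains and higher for none (0 also by DESeq2, and 1 at an unadjusted p under 0.05 by edgeR), where 8.23% of 15374 genes tested were lower and 4.85% higher (adjusted p under 0.05, edgeR's quasi-likelihood test). The median log2 change was −1.19 over the 19 chains and 0.09 over all genes tested. For 15 chains both shDAP5 values were below both shNSi values, as they did for 33.5% of all genes. The 11 chains came from 7 structural families, namely 2 of 3 type IV chains, all 3 type VI chains, 2 of 4 fibril-forming chains, 1 of 3 fibril-associated chains, 1 of 2 multiplexins, 1 of 2 transmembrane chains and the single short-chain network collagen.

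**Figure D1:**
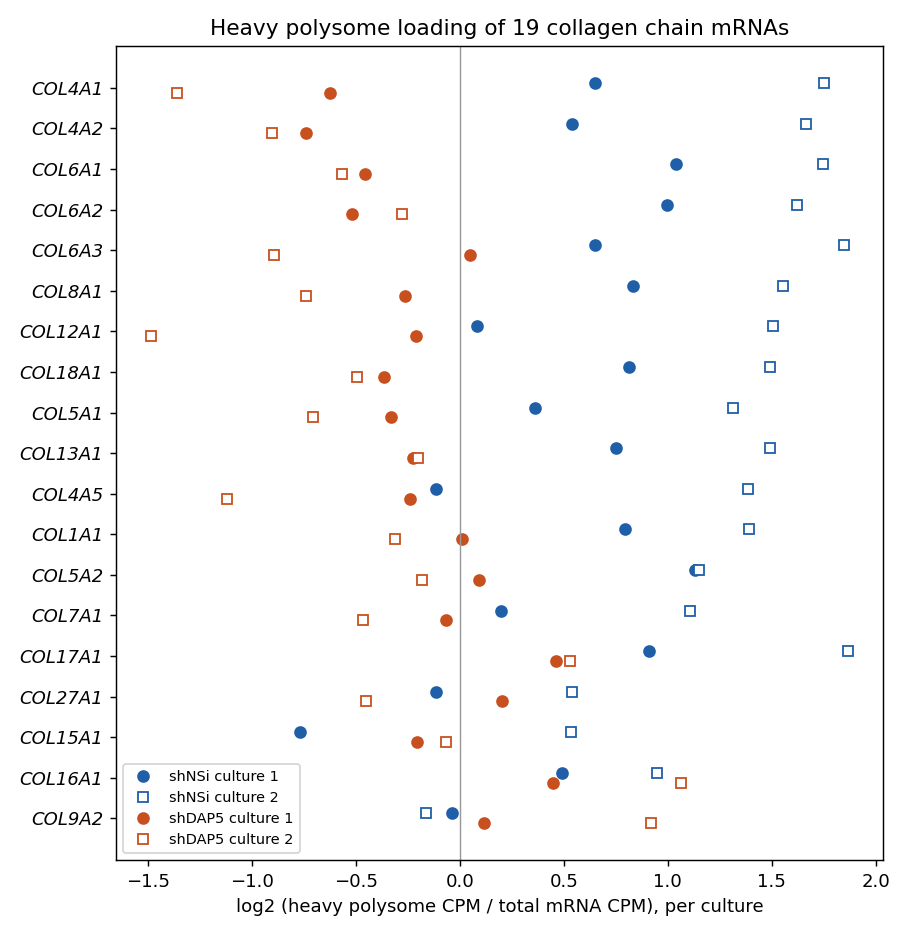
The log2 heavy to total ratio (x axis, from CPM) is plotted for each of the 19 collagen chains (y axis, ordered by fitted change), 1 point per culture. From COL4A1 down to COL17A1 both shDAP5 cultures lie to the left of both shNSi cultures, COL27A1, COL15A1 and COL16A1 overlap, and in COL9A2 the order is turned.

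The type IV chains COL4A1 and COL4A2, which assemble with each other into the common basement membrane collagen, had the lowest values. In heavy polysomes COL4A1 had 102 and 219 CPM in the shNSi cultures and 12.3 and 13.3 CPM in the shDAP5 cultures. In total mRNA it had 64.7 and 65.0 CPM in shNSi and 18.95 and 34.2 CPM in shDAP5 cells. The shDAP5 cultures were thus low in both RNA pools, and further below the shNSi cultures in heavy polysomes. The log2 ratio of heavy to total COL4A1 was 0.65 and 1.75 in shNSi and −0.63 and −1.36 in shDAP5 cultures. Its heavy translation efficiency changed by −2.05 (log2, SE 0.37, adjusted p = 0.0057), the lowest value among the collagen chains. COL4A2 followed it closely. Its log2 ratio of heavy to total was 0.54 and 1.67 in shNSi and −0.74 and −0.90 in shDAP5 cultures, a fitted log2 change of −1.78 (SE 0.36, adjusted p = 0.0057). In total mRNA COL4A2 had 148 and 216 CPM in shNSi and 61.9 and 99.8 CPM in shDAP5 cultures, with no overlap.

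The 2 genes lie head to head on chromosome 13, COL4A1 from 110148963 to 110307233 on the minus strand and COL4A2 from 110307236 to 110513209 on the plus strand (GRCh38, GENCODE v29). Because the genes share this region, the 126 bases between their starts in RefSeq are printed, chr13:110307158-110307283, plus strand, GRCh38.p14. The only match to CCAAT (searched on both strands) is in capitals. Any part of this region in the changes above was not tested. The GENCODE starts given above lie inside this stretch, so the annotations differ, and the CCAAT falls within COL4A1 as GENCODE places it.
COL4A1 and COL4A2: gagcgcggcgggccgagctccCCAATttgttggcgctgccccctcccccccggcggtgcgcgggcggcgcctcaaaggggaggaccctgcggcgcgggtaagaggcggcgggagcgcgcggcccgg

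The stretch was 80.2% G and C. It held 1 match to CCAAT, 1 to the GC box GGGCGG and none to TATAAA, on either strand. Of 35116 RefSeq promoter windows, 34.6% held CCAAT, 45.0% GGGCGG and 11.5% TATAAA, and of the 15 member promoters that matched by symbol 4, 11 and 5 did. A match is a description of the letters only.

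COL4A5, which assembles with chains that did not meet the count rule here, was further from the threshold. Its log2 ratio of heavy to total was −0.11 and 1.39 in shNSi and −0.24 and −1.12 in shDAP5 cultures. The fitted log2 change was −1.17 (SE 0.44, adjusted p = 0.0765), and it did not pass the test.

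All 3 type VI chains changed. COL6A1, the most abundant collagen mRNA by counts, had 188 and 957 CPM in shNSi heavy polysomes and 140 and 143 CPM in shDAP5 heavy polysomes. In total mRNA, by contrast, its level was 91.5 and 285 CPM in shNSi and 192 and 212 CPM in shDAP5 cultures, so the groups overlapped. The log2 ratio of heavy to total COL6A1 was 1.04 and 1.75 against −0.46 and −0.57, a change of −1.76 (SE 0.35, adjusted p = 0.0057). COL6A2 gave ratios of 1.00 and 1.62 in shNSi and −0.52 and −0.28 in shDAP5 cultures, a change of −1.56 (SE 0.34, adjusted p = 0.0075). COL6A3, the long chain that completes the heterotrimer, gave 0.65 and 1.85 against 0.05 and −0.90, a change of −1.55 (SE 0.40, adjusted p = 0.0142). In total mRNA COL6A3 had 13.4 and 34.7 CPM in shNSi and 7.42 and 15.2 CPM in shDAP5 cultures, so it varied within both lines. Its change in total mRNA was −1.06 (SE 0.58, adjusted p = 0.583), which did not pass the test here and passed without a filter, with a replicate block and without shNSi culture 1.

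COL8A1, a short-chain collagen of vessel and corneal membranes, had similar levels in both shNSi heavy libraries, 178 and 160 CPM, and 39.6 and 32.5 CPM in the shDAP5 ones. Its log2 ratio of heavy to total was 0.83 and 1.55 in shNSi and −0.26 and −0.74 in shDAP5 cultures, a change of −1.55 (SE 0.34, adjusted p = 0.0075). In heavy polysomes the lines were thus far apart and the cultures of each line close.
COL12A1, which decorates fibrils and is encoded by one of the longest collagen mRNAs, had ratios of 0.08 and 1.51 against −0.21 and −1.49, a change of −1.5 (SE 0.47, adjusted p = 0.0435). Here the cultures of each line differed by more than 1 log2 unit, and the adjusted p was the highest among the 11.
COL18A1, the source of the fragment endostatin, had ratios of 0.82 and 1.49 against −0.37 and −0.50, a change of −1.44 (SE 0.34, adjusted p = 0.0082). In total mRNA COL18A1 had 47.1 and 103 CPM in shNSi and 67.5 and 83.6 CPM in shDAP5 cultures, so the shDAP5 cultures lay between the shNSi ones.

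COL5A1, which regulates the width of fibrils, had a log2 ratio of 0.36 and 1.32 in shNSi and −0.33 and −0.71 in shDAP5 cultures (change −1.22, SE 0.35, adjusted p = 0.0212). COL13A1, which sits in the plasma membrane, had 0.75 and 1.49 against −0.22 and −0.20 (change −1.19, SE 0.35, adjusted p = 0.0209). COL1A1 had 0.79 and 1.39 against 0.01 and −0.31 (change −1.10, SE 0.35, adjusted p = 0.0325). In these 3 chains no shDAP5 culture reached the lower shNSi culture. COL13A1 total mRNA was 106 and 197 CPM in shNSi and 104 and 105 CPM in shDAP5 cultures, so that the lower shNSi culture was level with the shDAP5 ones.

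Of the remaining chains 4 had lower ratios in both shDAP5 cultures without passing the test, COL4A5 (above) among them. COL5A2, the partner of COL5A1, had ratios of 1.13 and 1.15 against 0.09 and −0.18 (change −1.04, SE 0.45, adjusted p = 0.106) on 46 to 68 reads per total library. COL7A1, the anchoring fibril collagen of skin, had 0.20 and 1.11 against −0.07 and −0.47 (change −0.78, SE 0.35, adjusted p = 0.124). COL17A1, a hemidesmosome component, had 0.91 and 1.87 against 0.46 and 0.53 (change −0.75, SE 0.39, adjusted p = 0.189). COL7A1 stood out by its spread, with 51.7 and 240.3 CPM in the total mRNA of the shNSi cultures.

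In the last 4 chains the shDAP5 cultures did not lie below the shNSi cultures. COL27A1, a fibrillar collagen of cartilage, had ratios of −0.12 and 0.54 against 0.20 and −0.45 (change −0.19, SE 0.36, adjusted p = 0.758). COL15A1 changed by 0.01 (SE 0.45) and COL16A1 by 0.14 (SE 0.45), and their groups overlapped. COL9A2, a fibril-associated chain of cartilage and the shortest coding sequence of the set, was the member with higher ratios in shDAP5 cells. It had 10.5 and 8.39 CPM in shNSi heavy polysomes and 16.3 and 16.7 CPM in shDAP5 heavy polysomes. Its log2 ratio of heavy to total was −0.04 and −0.16 against 0.11 and 0.92, with no overlap, and the change of 0.76 (SE 0.36, adjusted p = 0.148) did not pass the test. COL9A2 and COL4A1 lay at opposite ends of the set. Their coding sequences hold 84.9% and 78.6% of codons in glycine repeat blocks, and a link with the change was not tested.

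**Figure D2:**
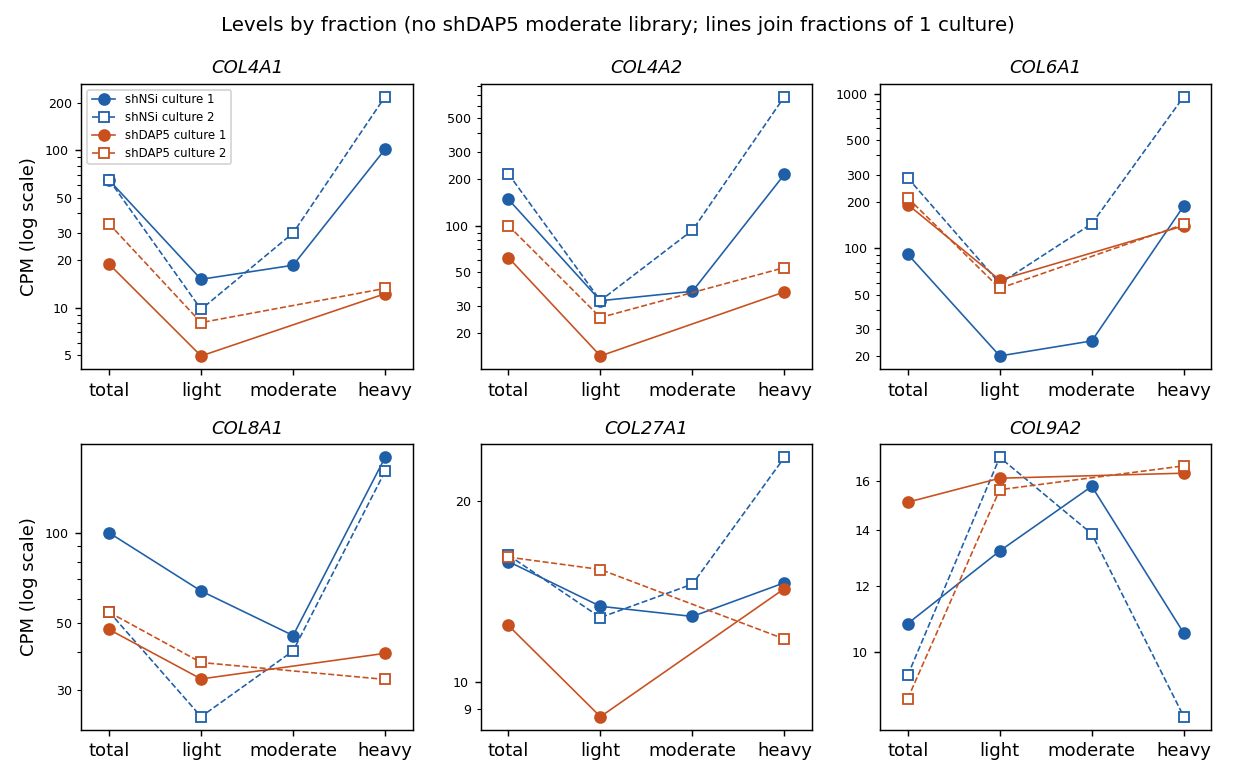
CPM on a log scale (y axis) in each fraction (x axis) is plotted for 6 collagen chains, with 1 line per culture; no shDAP5 moderate library was analysed. In shNSi cells COL4A1, COL4A2, COL6A1 and COL8A1 are highest in heavy polysomes, while in shDAP5 cells heavy polysomes are below total mRNA, and COL9A2 shows the reverse order.

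In total mRNA no collagen chain passed the test in either direction, where 0.267% of 14992 genes tested were lower (edgeR's quasi-likelihood test, adjusted p under 0.05). At an unadjusted p under 0.05, from the same edgeR fit, 4 chains were lower and 0 higher, namely COL4A1, COL4A2, COL12A1 and COL8A1, where 7.01% of all genes were lower at that threshold. DESeq2 called the first 3 of these lower, with 1.42% of 13829 genes, and limma called none. The median log2 change was −0.49 over the chains and 0.01 over all genes. With a culture left out the median over the chains ranged from −0.50 to −0.11, the latter without shNSi culture 2. Both shDAP5 values were below both shNSi values for 8 chains against 22.2% of all genes. COL4A1 changed by −1.26 (SE 0.25, adjusted p = 0.0555) and COL4A2 by −1.14 (SE 0.25, adjusted p = 0.0759), just outside the threshold. COL12A1, with 40.3 and 30.9 CPM in shNSi and 11.3 and 22.4 CPM in shDAP5 cultures, changed by −1.06 (SE 0.30, adjusted p = 0.162). The largest fitted value in total mRNA belonged to COL7A1 (−1.56, SE 0.99, adjusted p = 0.702), and without shNSi culture 2 it was −0.08.

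In heavy polysome mRNA itself, a measure that holds both the level of the mRNA and its loading, 13 chains were lower and 1 was higher, where 16.7% of 14270 genes were lower and 14.2% higher. Without TMM scaling 12 chains were lower and 1 higher, and the balance over all genes turned, with 7.98% lower and 17.5% higher. The median log2 change was −1.67 over the chains and 0.09 over all genes. COL4A1 changed by −3.46 (SE 0.36), COL4A2 by −3.12 (SE 0.40), COL8A1 by −2.05 (SE 0.34) and COL6A1 by −1.82 (SE 0.56), with adjusted p of 0.026 for the last. Without shNSi culture 2 the COL6A1 value was −0.27 and did not pass. COL9A2 was the 1 chain called higher, by 0.98 (SE 0.36, adjusted p = 0.0249 by edgeR's quasi-likelihood test), a call lost without any 1 of the 4 cultures (adjusted p from 0.0675 to 0.213). COL6A3 and COL7A1 had values of −3.0 (SE 1.03) and −2.64 (SE 1.37) that did not pass here. COL6A3 passed with DESeq2 and limma, without TMM, with either other filter, with a replicate block and in 1 fit of all 14 libraries, and COL7A1 with limma, without TMM, with the block and in the fit of all libraries. Without shDAP5 culture 2 no chain and 2 genes in all were called, and the median over the chains was −1.67. Without shNSi culture 2, 6 chains were lower, among 1260 genes, and the median was −0.69.

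**Figure D3:**
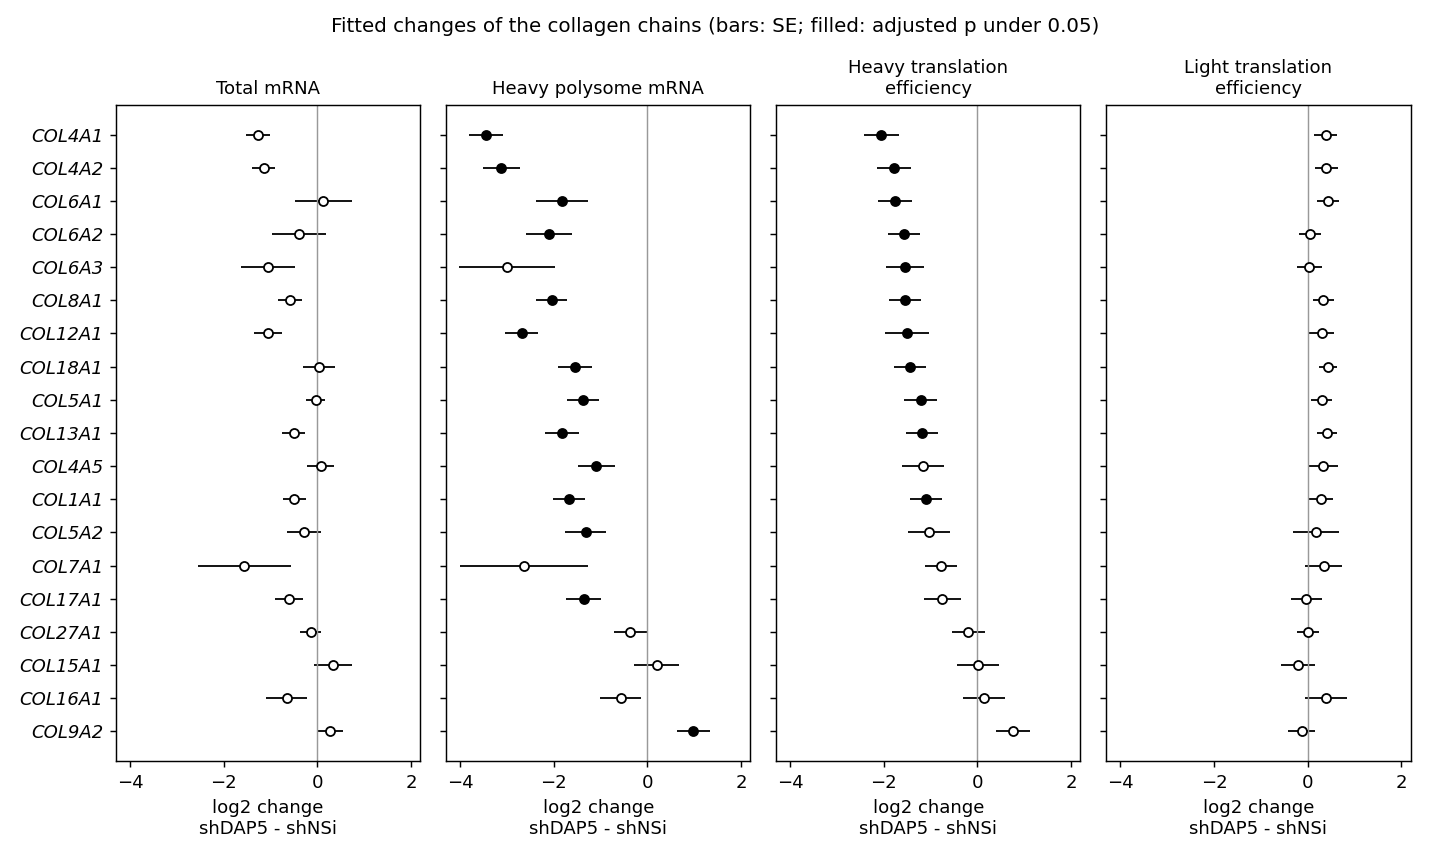
Fitted log2 changes (x axis, shDAP5 minus shNSi) of the 19 chains (y axis) are plotted for total mRNA, heavy polysome mRNA, heavy translation efficiency and light translation efficiency, with bars for the SE and filled points for an adjusted p under 0.05. The filled points number 0, 14, 11 and 0 from left to right, and 16 of the 19 light values lie above 0.

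Light polysomes gave a different picture. No chain passed the test for light polysome mRNA, nor for the ratio of light polysome to total mRNA, and no gene of 15529 and 15967 tested did (edgeR's quasi-likelihood test; 2 and 0 chains at an unadjusted p under 0.05 in the same edgeR fits, and 0 chains by DESeq2 or limma). Without shNSi culture 1, 5 chains were lower in light polysome mRNA and 4 higher in light translation efficiency, and without shNSi culture 2, 4 were lower and 3 higher in light polysome mRNA. In the same 3 fits 2637 genes in all were lower, 794 higher, and 494 lower and 287 higher. The change in light translation efficiency was above 0 for 16 of 19 chains and for 8140 of 15967 genes, with a median of 0.31 over the chains and 0.0078 over all genes, and a range from −0.21 to 0.44. COL6A1 changed by 0.44 (SE 0.24), COL18A1 by 0.44 (SE 0.20), COL13A1 by 0.41 (SE 0.22), COL4A2 by 0.40 (SE 0.24) and COL4A1 by 0.39 (SE 0.25). The shDAP5 light libraries are titled light but bear the code of the moderate pool in their column names. With the shNSi moderate pool as their control the median became −0.23, and the COL4A1 value −0.54, so the direction of the light changes depends on which shNSi pool is the control.

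The difference between the changes in heavy and light polysomes was tested directly. The change in heavy polysomes was lower than that in light polysomes for 9 chains, COL4A1, COL6A1, COL4A2, COL8A1, COL18A1, COL6A2, COL13A1, COL5A1 and COL1A1, where it was lower for 5.21% of 15878 genes. The median difference, heavy minus light, was −1.57 over the chains and 0.05 over all genes. COL4A1 had the lowest value, −2.50 (SE 0.50, adjusted p = 0.0175). The 9 calls fell to 0 with limma, with coding length offsets and without a term for each culture. In these fits no gene of any kind was called (0 in all). Fewer chains were also called without shNSi culture 2 or without either shDAP5 culture. This comparison shares its heavy libraries with the preceding ones and is no separate evidence.

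Collagen mRNAs are long, and coding length moved with the outcome across all genes. Over 12468 genes with a coding length, heavy translation efficiency changes correlated with coding length with Spearman's rho of −0.709, a description over genes that share the same libraries. Genes of up to 500 nt had a median log2 change of 0.88, and genes over 7000 nt one of −0.98. The 19 collagen coding sequences ran from 2067 to 9531 nt with a median of 4557, against 1413 nt for all genes tested. Among the chains alone rho was −0.137 for coding length, 0.142 for leader length and 0.0825 for coding GC content (n = 19 chains from the same libraries).

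Set beside genes of like length, the chains spread to both sides. COL4A1, COL4A2, COL6A1, COL6A2, COL6A3, COL8A1 and COL12A1, 7 in all, lay below the 10th percentile of their length bin. COL9A2, COL15A1, COL16A1 and COL27A1 lay above the 90th percentile of theirs, and 13 chains lay below the median. When an offset for coding length was fitted in each library, 3 chains stayed lower by edgeR's test, among 231 genes lower and 195 higher in all, COL4A1 with −1.18 (adjusted p = 0.0223), COL6A1 with −1.08 (adjusted p = 0.0255) and COL8A1 with −1.08 (adjusted p = 0.0282). COL4A2 had −0.90 (adjusted p = 0.0602) and COL6A2 −0.89 (adjusted p = 0.0637). The median over the 19 chains was then −0.32, and COL7A1, COL17A1 and COL27A1 turned to positive values. Offsets of this kind remove any change that runs with length, whatever its source, and the part of length in the result was not tested.

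**Figure D4:**
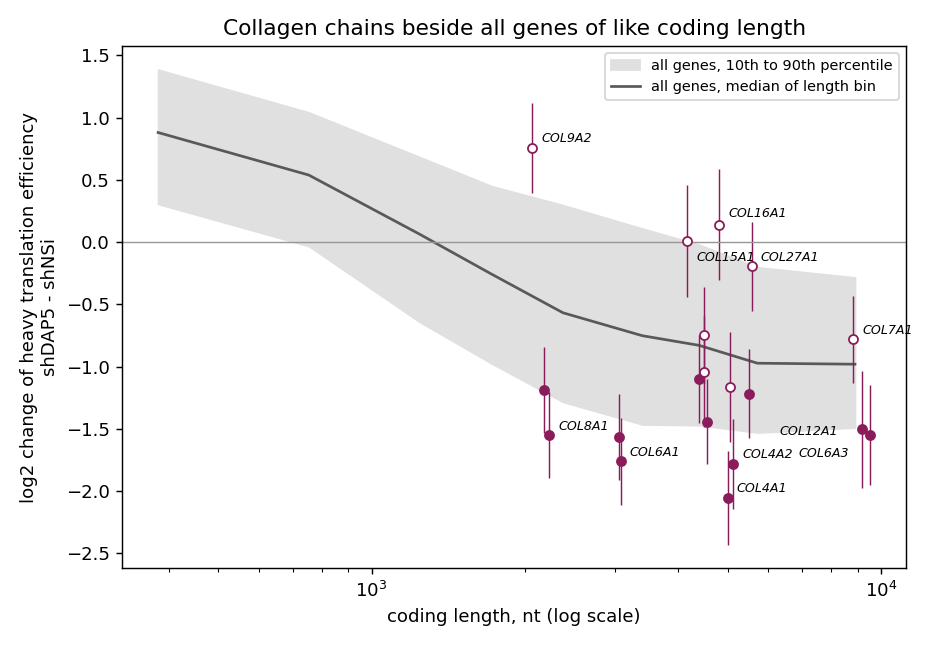
The change in heavy translation efficiency (y axis, log2, shDAP5 minus shNSi) is plotted against coding length (x axis, nt, log scale) for the 19 chains with SE bars, filled where the adjusted p is under 0.05, over the median and the 10th to 90th percentile of all genes in 9 length bins. COL4A1, COL4A2, COL6A1, COL6A2, COL6A3, COL8A1 and COL12A1 lie below the 10th percentile of their length bin. COL9A2, COL15A1, COL16A1 and COL27A1 lie above the 90th percentile of theirs.

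The number of chains called depended on which cultures were kept. In 18 of 19 chains the heavy to total ratio was higher in shNSi culture 2 than in culture 1. The share over all genes was not counted, so whether this is particular to the collagens was not tested. Without shNSi culture 2, no chain was called in heavy translation efficiency, without shDAP5 culture 2 there were 4 among 43 genes in all, and without shNSi culture 1 there were 11, among 552 genes lower in all. Without shDAP5 culture 1, 12 were lower and 1, COL9A2, was higher, among 2453 genes lower and 2062 higher. The loss without shNSi culture 2 was general, since 4 genes in all were then called, and the median over the chains was still −0.80. Without the TMM scaling, and in a fit without a term for each culture, no gene of any kind was called (0 in all), and the medians over the chains were −0.98 and −1.35. The median of all genes without TMM was 0.30. Ratios of the shNSi moderate pool to total mRNA were below 0 in both cultures for 16 chains and 33.5% of 16235 genes. With the moderate pool replacing the shNSi heavy pool, no gene was called (0 in all) and the median over the chains was 0.49. The lower loading was thus seen against the pool titled heavy and not against the pool titled moderate. With the moderate pool added to the heavy pool no gene was called either (0 in all). Only light and heavy pools are given for shDAP5 cultures, and a moderate pool as well for shNSi. The heavy pools may therefore hold different parts of the gradients, which cannot be told apart from the effect of the shRNA.

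**Figure D5:**
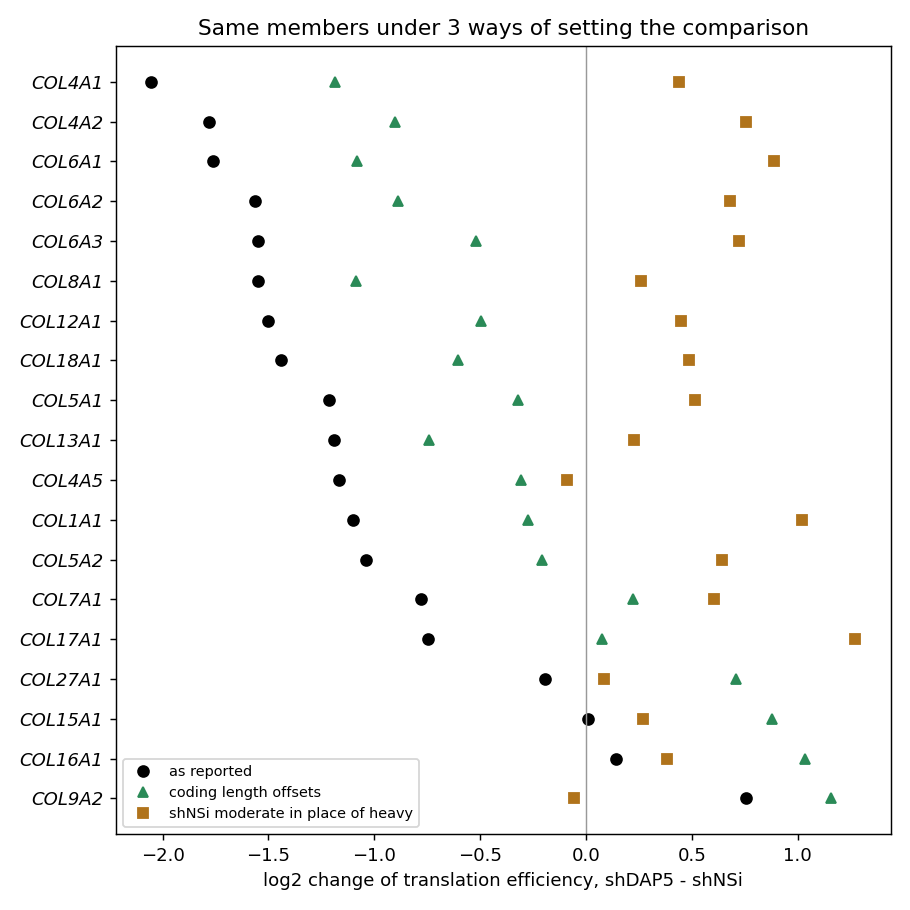
The log2 change in translation efficiency (x axis, shDAP5 minus shNSi) of each chain (y axis) is plotted as reported, with coding length offsets, and with the shNSi moderate pool in place of the heavy pool. The medians of the 3 sets are −1.19, −0.32 and 0.49, and COL4A1, COL6A1 and COL8A1 are the chains called lower with the offsets.

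The proteins that modify, export, cross-link and bind collagens were read beside the chains. Of 45 listed genes 37 met the same count rule. In heavy translation efficiency 16 of the 37 were lower and none higher, against 8.23% and 4.85% of all genes tested, with a median log2 change of −0.89. They included the lysyl hydroxylases PLOD1, PLOD2 and PLOD3, the prolyl hydroxylases P4HA1, P4HA2, P3H1 and P3H3, the export receptor MIA3 (TANGO1), which helps bulky procollagen into transport carriers, and the receptors DDR2 and MRC2. The collagen-binding integrin chains ITGA2 and ITGB1 changed by −1.87 (SE 0.47, adjusted p = 0.0187) and −1.78 (SE 0.39, adjusted p = 0.0075). For ITGB1 the log2 ratio of heavy to total was 1.28 and 2.01 in shNSi and 0.30 and −0.85 in shDAP5 cultures. The cross-linking enzyme LOXL2 changed by −1.59 (SE 0.35, adjusted p = 0.0075), and its ratios were 0.99 and 1.76 against −0.35 and −0.37. The lysyl hydroxylases PLOD2 and PLOD1 changed by −1.46 (SE 0.35, adjusted p = 0.0082) and −1.44 (SE 0.34, adjusted p = 0.0082). The collagen chaperone SERPINH1 (HSP47) had −0.75 (adjusted p = 0.135) and the isomerase PPIB 0.35 (adjusted p = 0.548). In total mRNA none of the 37 genes was called by edgeR's quasi-likelihood test, 19 were lower at an unadjusted p under 0.05 in the same edgeR fit (7.01% of all genes), and DESeq2 called 7 lower (1.42% of all genes). Without shNSi culture 2 none of the 37 was lower in heavy translation efficiency and without shDAP5 culture 2 there was 1.

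The laminins, the other large trimeric proteins of basement membranes, were counted for comparison. Of 12 laminin chain symbols 10 met the rule, and 6 of these 10 were lower in heavy translation efficiency, against 8.23% of all genes, with a median of −1.14. Without shNSi culture 2 and without shDAP5 culture 2 the count was 0. LAMC1 and LAMB1, chains shared by many laminins, changed by −1.57 (SE 0.37, adjusted p = 0.0082) and −1.44 (SE 0.35, adjusted p = 0.0097). The laminin values ran from −1.57 to −0.23, those of the collagen chains from −2.05 to 0.76, and no difference between the lists was tested. With coding length offsets no laminin chain was called.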

How the data were processed

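The authors deposited raw read counts per gene symbol, whole numbers without normalization, for the 14 libraries. The submitters' processing notes name STAR 2.6.0a, limma and hg19, with no roles given; the counting settings are not given in the sources used here. No columns of other series were present. Symbols were matched to GENCODE v29 (GRCh38) for positions, exons and coding length, and to RefSeq promoters. Counts were analysed in R 4.3.3 with edgeR 4.0.16: filterByExpr, TMM, robust quasi-likelihood test, Benjamini-Hochberg adjustment over all genes, threshold 0.05, 4 libraries per fraction and 8 per translation efficiency test. Displayed CPM use TMM over all 14 libraries. With 2 cultures against 2 an exact permutation test cannot give a two-sided p below 0.333. Alternatives used DESeq2 1.42.0, limma 3.58.1 on log2(CPM + 1), no TMM, other filters, a replicate block, coding length offsets, the shNSi moderate pool, other count minimums and each culture left out. Coding length was available for 81.1% of tested genes. Libraries were grouped by title, and the study describes the replicates as independent experiments. The tests were also run on simulated counts, and the outcome is not given here. Named in full are chains called in total mRNA or heavy translation efficiency and the 3 most abundant. Named as well are EIF4G2 and the 5 processing genes with a mean of at least 10 CPM and the largest called changes. Other genes named were chosen after their values were seen. The members and lists were chosen with earlier results of these data known. Overlapping genes are counted as deposited. Depth ranged from 25899838 to 30795910 counts, and each group held 2 cultures. A fit with a culture left out has 1 library of that line per fraction, which is assumed to vary like the other line. One further line marker and one further coding stretch are not reported here.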

Additional observations from a re-analysis of the deposited data

Results flagged for a closer look

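The change from shNSi to shDAP5 cells differed between heavy and light polysomes for 9 collagen chains, by a test of the difference itself (interaction term, edgeR's quasi-likelihood test, adjusted over 15878 genes). The difference, heavy minus light on the log2 scale, was −2.50 for COL4A1, −2.25 for COL6A1, −2.24 for COL4A2, −1.95 for COL8A1 and −1.93 for COL18A1. It was −1.68 for COL6A2, −1.66 for COL13A1, −1.57 for COL5A1 and −1.44 for COL1A1. With the shNSi moderate pool in place of or added to the heavy pool no chain was called, nor any other gene (0 in all). With the moderate pool in place of the shNSi light pool 10 chains were called lower and with it added to light 12, where 1887 and 1506 genes were lower in all.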

How the results depend on the processing

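The direction of the collagen changes in heavy translation efficiency held under other tools, filters and scalings for the chains called, and turned with the shNSi moderate pool as control. Counts of chains called lower in heavy translation efficiency were 0 without TMM, 6 with limma on quantile-normalized values, 3 with coding length offsets, 0 without a term for each culture, and 0 with the moderate pool in place of or added to the shNSi heavy pool. With limma 167 genes were lower and 241 higher in all, so that more genes were higher than lower. In the same order the laminin counts were 0, 0, 0, 0, 0 and 0 and those of processing genes 0, 5, 7, 0, 0 and 0. Leaving out 1 culture at a time gave 0 to 12 collagen chains lower and 0 to 1 higher, 0 to 8 laminin chains lower, and 0 to 19 processing genes lower.

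With the moderate pool in place of the heavy pool the heavy translation efficiency changes became COL12A1 0.45, COL13A1 0.23, COL17A1 1.27, COL18A1 0.49, COL1A1 1.02, COL27A1 0.087, COL4A1 0.44, COL4A2 0.75, COL5A1 0.52, COL5A2 0.64, COL6A1 0.89, COL6A2 0.68, COL6A3 0.72, COL7A1 0.61, COL8A1 0.26 and COL9A2 −0.058, with a median of 0.49. With it added, COL17A1 had 0.13 and COL27A1 0.054. With length offsets COL17A1 had 0.077, COL27A1 0.71 and COL7A1 0.22. COL27A1 was 0.021 without TMM. COL15A1 was −0.11 with limma, −0.018 without a filter and −0.17 without culture terms, and COL16A1 −0.0087 with limma. With a culture left out COL15A1 ranged from −0.55 to 0.79, COL16A1 from −0.21 to 0.47 and COL27A1 from −0.56 to 0.14.

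In total mRNA 3 collagen chains and 7 processing genes were lower with DESeq2, among 196 genes lower and 77 higher in all. Without a filter 4 and 12 were lower, among 427 genes lower and 150 higher in all. With a culture left out 0 to 6 chains were lower and 0 to 1 higher, 0 to 10 processing genes lower and 0 to 1 higher, and COL9A2 ranged from −0.19 to 0.60. EIF4G2 no longer passed at −1.07 without TMM, −1.08 with limma and −1.13 in 1 fit of all libraries, and ranged from −0.90 to −1.37 with a culture left out.

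In heavy polysome mRNA no chain was higher (0) without a filter or in 1 fit of all 14 libraries. Length offsets gave 4 lower and 1 higher (COL9A2), among 957 genes lower and 814 higher in all. The moderate pool in place of heavy gave 0 lower and 0 higher, a median of 0.037 and COL6A1 0.76. Over all genes 24 were then lower and 26 higher. Added to heavy it gave 7 lower and 0 higher, among 337 genes lower and 84 higher in all. With a culture left out 0 to 16 were lower and 0 higher.

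In light polysome mRNA the moderate pool in place of light gave 3 lower, among 2001 genes lower and 1939 higher in all, and COL6A1 −0.52, and added it gave COL6A1 −0.082. With a culture left out the number called moved. The median then ranged from −0.39 to 0.085, COL6A1 from −0.038 to 1.54 and COL8A1 from −0.88 to 0.49. In light translation efficiency the moderate pool in place of light gave a median of −0.23, COL4A1 −0.54, COL4A2 −0.44 and COL6A1 −0.35, and added it gave COL4A1 −0.14 and COL4A2 −0.071. Here too the number called higher moved with the culture left out.

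For the difference between the heavy and light changes 0 were lower with limma, with length offsets, without culture terms and with the moderate pool in place of or added to heavy. In place of heavy it gave a median of 0.22, with COL18A1 0.061, COL1A1 0.74, COL4A1 0.060, COL4A2 0.36, COL5A1 0.22, COL6A1 0.46 and COL6A2 0.63. The number called lower moved as well when a culture was left out.

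Whether the replicate numbers pair the cultures is not settled. Same-numbered cultures correlated in their deviations with r from −0.314 (heavy translation efficiency) to 0.059. These values rest on 1 difference between cultures per line and cannot exclude pairing. With the replicate block 8 chains and 9 processing genes were lower in heavy translation efficiency (519 genes lower and 169 higher in all), and 4 chains and 7 processing genes in total mRNA (253 lower and 112 higher). With the replicate block and length offsets 5 chains were lower and 1 higher in heavy translation efficiency. Over all genes 341 were lower and 317 higher. COL17A1 had 0.080, COL27A1 0.71 and COL7A1 0.22, and 0 laminins and 8 processing genes were lower. In total mRNA 2 chains were lower, among 29 genes lower and 12 higher in all. In heavy polysome mRNA 8 chains were lower and 2 higher, among 1818 genes lower and 1631 higher. In the difference between heavy and light 2 chains were lower, among 118 genes lower and 121 higher. With the block crossed, chosen after seeing the data, 13 chains were lower in heavy translation efficiency, among 2375 genes lower and 1758 higher in all, and 1 in total mRNA, among 38 lower and 33 higher. Where a value moved the cause was not tested. The fits with a culture left out also hold fewer samples. Of 1169 values under an alternative, 812 kept their direction and side of the threshold. Chains with few reads, such as COL15A1 and COL16A1, may also be limited by depth, which was not tested.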
